A study of Mus musculus with 8 samples.

Results

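Glucose uptake and glycolysis were described through 10 genes in DN3 thymocytes lacking the ER-associated degradation adaptor SEL1L: Slc2a1, Hk1, Hk2, Gpi1, Pfkl, Aldoa, Tpi1, Pgk1, Pkm and Ldha. They were named by function, as a glucose transporter and enzymes of the glycolytic steps, and all 10 were among the 16538 genes with an expression value. RNA was sequenced from sorted DN3 cells, the CD25+ CD44- stage of CD4- CD8- thymocytes at which β-selection begins, from C57BL/6 mice aged 6 weeks. The 4 control libraries came from Sel1l-f/f mice, titled WT, which carried the floxed alleles without Cre. The 4 Sel1l CKO libraries came from Sel1l-f/f hCD2cre+ mice. The human CD2 promoter drives this Cre in lymphoid progenitors from the early T lineage precursor stage, so Sel1l was already a target before the cells became DN3, and the control mice do not show what the Cre itself does. Nothing said whether each library was 1 mouse, so the tests below measure the spread between libraries.

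Glycolysis turns glucose into pyruvate in the cytosol, giving ATP, NADH and intermediates that other pathways use. Glucose enters through facilitative transporters, hexokinases trap it as glucose 6-phosphate, phosphofructokinase commits it to the pathway, and pyruvate kinase and lactate dehydrogenase close it. Thymocytes that pass β-selection grow and divide rapidly, and Notch, the pre-TCR, MYC and HIF1 are known to raise glucose uptake and glycolytic enzymes in such cells.

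No member passed the test between control and Sel1l CKO DN3 thymocytes, and the mean RPKM of the 10 in Sel1l CKO libraries ran from 89.7% of control (Aldoa) to 127.1% (Hk2). Levels are RPKM, reads per kilobase of gene scaled to the reads counted in the library. The 8 members with a mean of at least 1 RPKM were tested with limma on log2(RPKM + 0.1) together with all 6512 genes above that level. Of the 8, 0 were called higher and 0 lower at an adjusted p under 0.05, and 0 passed at an unadjusted p under 0.05. The voom method on read counts also called 0 of the 10, with Hk2 alone at an unadjusted p under 0.05. Across all tested genes 4.27% were called higher and 1.01% lower, and 1356 of 6512 had an unadjusted p under 0.05 in limma. The groups overlapped for all 8 members, where 9.15% of all tested genes had every Sel1l CKO library above every control library and 5.59% had every one below. Without a minimum level, 0 of the 10 members were called, against 1.65% of 15856 genes called higher and 0.309% lower. The median log2 difference of the 8 was 0.0036 with 4 above and 4 below 0, beside a median of 0.0102 over all tested genes. Their 95% intervals together reached from 0.790-fold, the lower bound of Aldoa, to 1.37-fold, the upper bound of Pgk1, both on the RPKM + 0.1 scale. For the 2 members under 1 RPKM they were 0.803-fold to 1.17-fold for Slc2a1 and 0.970-fold to 1.51-fold for Hk2.

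The libraries held 32900252 to 50401358 reads counted on genes. Sel1l was 1.67 ± 0.114 RPKM (SD, n = 4) in control and 1.09 ± 0.222 (SD, n = 4) in Sel1l CKO libraries, 65.1% of control, with no overlap (log2 difference -0.59, adjusted p = 0.0327). Its adjusted p was 0.0646 to 0.0981 without Sel1l CKO replicate 1 or 2 or without any 1 of the 4 control libraries, 0.0904 without a minimum level and 0.0649 with equal RPKM sums. It was 0.918 and 0.876 in Sel1l CKO replicates 1 and 2 and 1.32 and 1.23 in replicates 3 and 4, counted over the whole gene and so not limited to the deleted part. All 15 DN3 markers were expressed, with sums of 560 to 672 RPKM in control and 483 to 527 in Sel1l CKO libraries and 0 called in either direction. Their log2 differences were below 0 for 12 and above 0 for 3, with a median of -0.26. In limma 7 of the 15 had an unadjusted p under 0.05, beside 1356 of all 6512 tested genes. Without any overlap, 4 of the 15 were lower and 0 higher in Sel1l CKO, beside 5.59% and 9.15% of all tested genes. Of the 8 markers of earlier progenitors 0 reached 1 RPKM. Kit, the highest of them, had a mean of 0.360 in control and 0.265 in Sel1l CKO libraries. RPKM here is per gene span with introns, which lowers long genes, so a value under 1 does not show absence. The 6 red cell markers summed to at most 1.117 in control and 2.66 in Sel1l CKO libraries, with Alas2 at 0 in all. Sums for the lists of other cells were 18.8 to 22.4 against 13.6 to 17.8 RPKM for myeloid and dendritic cells (10 markers, 0 called) and 5.80 to 7.29 against 3.87 to 4.80 for stroma (9 markers, Epcam called lower). B cell markers summed to 8.22 to 10.2 against 5.32 to 8.22 (6 markers, 0 called), and NK and γδ markers to 35.9 to 43.3 against 25.4 to 40.3 (5 markers, 0 called). Of 14 heat shock and immediate early genes 5 were called lower (Hspa1a, Hspa1b, Hsph1, Hsp90aa1 and Btg2), beside 1.01% of all tested genes. The sum of the 14 was 3113 and 4392 RPKM in control replicates 3 and 4 against 757 and 937 in replicates 2 and 1 and 491 to 861 in Sel1l CKO libraries. The part of these differences in the values of the glycolytic genes was not tested. In bulk RNA, fewer cells of a type and less RNA per cell cannot be told apart.

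Promoter sequences are shown for 3 enzymes whose levels moved together from library to library, as described below. Each run is the 250 bases before a RefSeq transcription start, 5′ to 3′ on the gene's strand, in GRCm38.p6. Capitals mark ACGTG, the core that HIF1 binds, read on both strands, so that the reverse complement appears as CACGT. It overlaps CACGTG, the E-box that MYC binds. The Ldha run lies at chr7:46845554-46845803 on the plus strand, the Pgk1 run at chrX:106186850-106187099 on the plus strand and the Tpi1 run at chr6:124814159-124814408 on the minus strand.
Ldha: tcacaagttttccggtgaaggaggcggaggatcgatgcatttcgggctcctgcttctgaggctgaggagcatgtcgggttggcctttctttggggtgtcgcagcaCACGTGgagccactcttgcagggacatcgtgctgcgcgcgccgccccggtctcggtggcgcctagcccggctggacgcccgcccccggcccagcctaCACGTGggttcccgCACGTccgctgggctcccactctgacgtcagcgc
Pgk1: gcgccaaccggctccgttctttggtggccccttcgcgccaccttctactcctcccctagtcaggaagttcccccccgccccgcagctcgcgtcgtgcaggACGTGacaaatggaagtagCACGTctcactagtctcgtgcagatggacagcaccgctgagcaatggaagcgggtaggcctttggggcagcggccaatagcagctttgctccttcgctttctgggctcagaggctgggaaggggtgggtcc
Tpi1: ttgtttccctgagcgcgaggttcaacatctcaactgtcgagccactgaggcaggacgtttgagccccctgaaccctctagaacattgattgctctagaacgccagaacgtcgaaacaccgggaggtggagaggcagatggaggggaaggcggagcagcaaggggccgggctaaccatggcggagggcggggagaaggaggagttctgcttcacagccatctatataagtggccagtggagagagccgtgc
The Ldha run held 5 matches counted over both strands, including 2 copies of CACGTG, the Pgk1 run held 2 matches with 0 CACGTG, and the Tpi1 run held 0. Ldha has another RefSeq start, with the 250 bases at chr7:46846832-46847081, which held 0 matches to either motif. RefSeq gave 15 starts for the 10 members, and 7 of them, in 6 members, had ACGTG in the 250 bases. Of these 7, 2 were overlapping Aldoa runs, chr7:126799179-126799428 and chr7:126799255-126799504, which held the same match, so 1 site was counted 2 times. Over 32851 mouse promoters of the same length 16.6% held ACGTG and 6.02% held CACGTG. These are matches of letters in a short window and say nothing about binding.

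Slc2a1 (chr4:119108711-119137983, plus strand) encodes GLUT1, the main glucose transporter of activated and developing T cells. It read 0.591, 0.573, 0.692 and 0.688 RPKM in control replicates 1 to 4 and 0.595, 0.769, 0.568 and 0.538 in Sel1l CKO replicates 1 to 4. The groups overlapped fully, and both the highest and the lowest value belonged to Sel1l CKO libraries. The means were 0.636 ± 0.0628 and 0.617 ± 0.104 (SD, n = 4 each), a log2 difference of -0.04 (SE 0.116, adjusted p = 0.879 in the limma fit without a minimum level). At these levels between 518 and 1134 reads stood behind each value, so counting error was small beside the spread of the libraries. Of the summed level per exon length of 5 genes of the transporter family, Slc2a1 made up 50.3% ± 1.88 in control and 49.4% ± 4.42 in Sel1l CKO libraries (SD, n = 4 each). The 5 were Slc2a1, Slc2a3, Slc2a6, Slc2a8 and Slc2a9, and other genes of the family were left out. Slc2a3, which encodes the high-affinity transporter GLUT3, gave 28.1% and 28.0%, and Slc2a9 gave 18.8% and 17.5%.

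Hexokinases phosphorylate glucose on entry. Hk1 (chr10:62268855-62379908, minus strand), the widely expressed form, read 1.19, 1.37, 1.16 and 1.22 RPKM in control and 1.37, 1.30, 1.35 and 1.26 in Sel1l CKO libraries. Control replicate 2 lay as high as the highest Sel1l CKO library, and the other 3 control libraries lay below all of them. The log2 difference was 0.09 (SE 0.0771, 1.07-fold, 95% interval 0.944 to 1.20, adjusted p = 0.524). Hk2 (chr6:82725025-82774454, minus strand), the form induced by growth signals, read 0.433, 0.347, 0.300 and 0.294 RPKM in control and 0.455, 0.533, 0.392 and 0.367 in Sel1l CKO libraries. Control replicate 1 lay among the Sel1l CKO values and the other 3 control libraries lay below them. Its means were 0.344 ± 0.0642 and 0.437 ± 0.0738 (SD, n = 4 each), the largest proportional difference among the 10 members, and it did not pass the test (log2 difference 0.28, SE 0.136, adjusted p = 0.400 without a minimum level). With voom on reads the log2 difference was 0.37 (adjusted p = 0.219). Hk1 made up 84.8% ± 2.52 of hexokinase level per exon length in control and 82.4% ± 2.23 in Sel1l CKO libraries (SD, n = 4 each), and Hk3 less than 1% in every library.

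Gpi1 (chr7:34201330-34230336, minus strand), the isomerase that makes fructose 6-phosphate, read 20.7, 22.7, 23.2 and 22.5 RPKM in control and 20.8, 20.1, 19.9 and 20.9 in Sel1l CKO libraries. The Sel1l CKO libraries lay close together, and the groups overlapped through control replicate 1, below which only Sel1l CKO replicates 2 and 3 lay. The log2 difference was -0.12 (SE 0.0593, 0.918-fold, 95% interval 0.837 to 1.01, adjusted p = 0.277), and the exact permutation test of the RPKM values gave p = 0.0857. Pfkl (chr10:77986947-78010083, minus strand) encodes the liver-type subunit of phosphofructokinase, the committed step. It read 7.34, 7.04, 5.72 and 7.31 RPKM in control and 7.39, 7.15, 6.24 and 6.20 in Sel1l CKO libraries, so the lowest value was control replicate 3. The log2 difference was -0.02 (SE 0.0998, 0.986-fold, 95% interval 0.844 to 1.15, adjusted p = 0.928). Pfkl made up 56.7% ± 1.81 of phosphofructokinase level per exon length in control and 54.2% ± 1.40 in Sel1l CKO libraries (SD, n = 4 each).

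Aldoa (chr7:126795234-126800751, minus strand), the aldolase that splits fructose 1,6-bisphosphate, read 47.5, 54.5, 49.5 and 52.4 RPKM in control and 50.6, 47.8, 42.3 and 42.1 in Sel1l CKO libraries. Sel1l CKO replicates 3 and 4 were the lowest of the 8, while replicates 1 and 2 lay within the control values. The log2 difference, the most negative among the members, was -0.16 (SE 0.0803, 0.896-fold, 95% interval 0.790 to 1.02, adjusted p = 0.302). With limma array weights, which give less weight to libraries far from their group, Aldoa alone of the 8 passed as lower (log2 difference -0.24, adjusted p = 0.0429). Another annotated gene shares the symbol Aldoa, and the values matched the span given here. Tpi1 (chr6:124810586-124814296, minus strand), triose phosphate isomerase, read 84.4, 94.5, 80.0 and 93.2 RPKM in control and 115.0, 98.1, 76.2 and 74.4 in Sel1l CKO libraries. Both the 2 highest and the 2 lowest values belonged to Sel1l CKO libraries. The means were 88.0 ± 6.99 and 90.9 ± 19.3 (SD, n = 4 each, log2 difference 0.03, SE 0.139, adjusted p = 0.930), and the sign of the log2 difference turned with quantile normalization (-0.04) and with array weights (-0.17). The Tpi1 span overlaps Spsb2 on the opposite strand (mean 4.26 RPKM), and whether the counting used strand was not stated.

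Pgk1 (chrX:106187100-106203699, plus strand), phosphoglycerate kinase and the first ATP-yielding enzyme of the pathway, read 20.6, 19.9, 17.9 and 21.2 RPKM in control and 26.7, 25.5, 19.7 and 19.7 in Sel1l CKO libraries. Sel1l CKO replicates 1 and 2 lay above all control libraries and replicates 3 and 4 among them. The log2 difference, the highest of the 8 tested members, was 0.19 (SE 0.116, 1.14-fold, 95% interval 0.953 to 1.37, adjusted p = 0.381). Pkm (chr9:59656368-59679375, plus strand), pyruvate kinase, read 46.7, 48.6, 44.5 and 49.9 RPKM in control and 54.4, 48.3, 41.7 and 41.1 in Sel1l CKO libraries. Sel1l CKO libraries held the highest value and the 2 lowest. The log2 difference was -0.04 (SE 0.0957, 0.972-fold, 95% interval 0.837 to 1.13, adjusted p = 0.837). Counts per gene do not separate the M1 and M2 forms of Pkm, which use alternative exons.

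Ldha (chr7:46841475-46855627, plus strand), the lactate dehydrogenase subunit that favours lactate formation, read 58.3, 55.7, 48.1 and 56.4 RPKM in control and 71.2, 70.5, 51.2 and 47.9 in Sel1l CKO libraries. Sel1l CKO replicates 1 and 2 were the highest of the 8, and replicate 4 was the lowest. The means were 54.6 ± 4.45 and 60.2 ± 12.4 (SD, n = 4 each), a log2 difference of 0.12 (SE 0.140, 1.09-fold, 95% interval 0.873 to 1.35, adjusted p = 0.653). Pgk1, Ldha and Aldoa have near-identical processed copies in the mouse genome, so reads may be shared between copies and their levels are less certain.

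**Figure D1:**
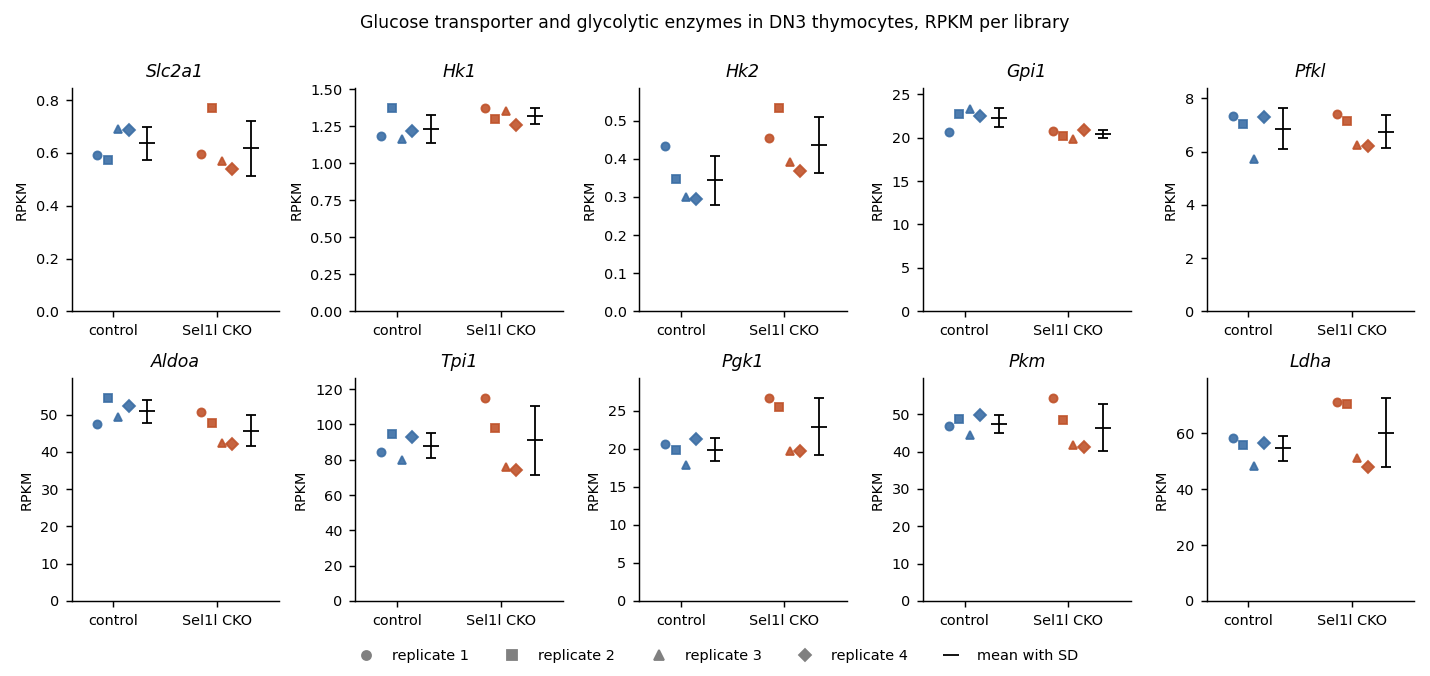
RPKM (vertical axes, each from 0) of the 10 members in the 4 control (blue) and 4 Sel1l CKO (orange) libraries, with the marker shape giving the replicate number and the bar the mean with SD. The groups overlap for every gene, and Tpi1 and Ldha have a wider spread in Sel1l CKO (SD 19.3 and 12.4) than in control (SD 6.99 and 4.45).

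The plot of log2 differences sets the members beside other genes around the pathway. The intervals of all 10 members cross 0.

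**Figure D2:**
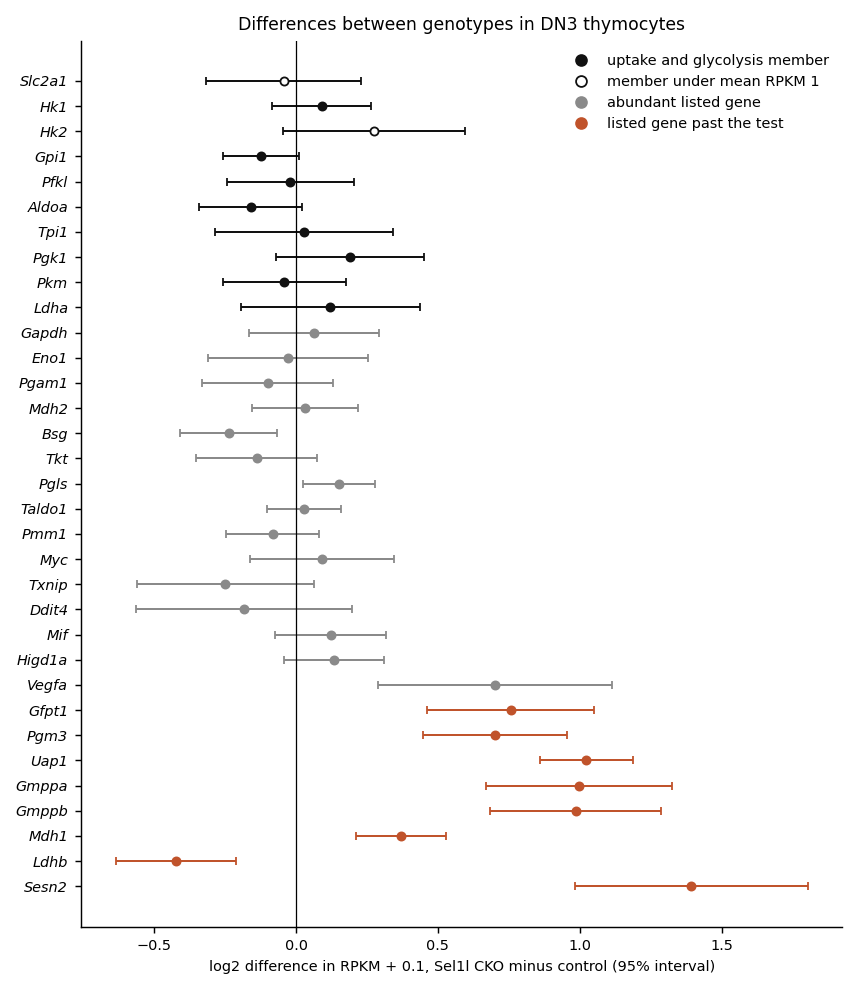
Log2 difference in RPKM + 0.1, Sel1l CKO minus control, with 95% interval (horizontal axis) for the 10 members (black, open circles for Slc2a1 and Hk2 with a mean under 1 RPKM), abundant genes of the related lists (grey) and listed genes past the test (orange). Members run from -0.16 (Aldoa) to 0.28 (Hk2), while Uap1 stands at 1.02 and Sesn2 at 1.39.

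Levels of different genes can be compared only per length, so reads were divided by the exon length of each gene. On that scale the control means were 233.5 RPKM for Ldha, 218 for Pkm, 147 for Pgk1, 119 for Tpi1, 97.2 for Gpi1, 96.6 for Aldoa, 23.8 for Pfkl, 16.1 for Hk1, 5.31 for Slc2a1 and 2.85 for Hk2. The 6 enzymes from Gpi1 and Aldoa down to Ldha, Pfkl left out, thus read higher on this scale than the transporter, both hexokinases and Pfkl. Neighbours in this order did not differ beyond the control spread for Ldha (206 to 249) and Pkm (205 to 229), nor for Gpi1 (90.3 to 101.5) and Aldoa (90.1 to 103). The other neighbours did not overlap among control libraries, for example Pgk1 (132 to 157) and Tpi1 (108 to 127). The length used was that of all annotated exons of a gene together, 6452 bases for Gpi1 and 2753 for Tpi1. It can exceed the transcripts present, by an amount that may differ between genes. The spread of the control libraries does not cover this, so the order and the shares between genes are uncertain.

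Several members varied together among libraries of one genotype. The summed RPKM of the 10 was 287.7, 305.1, 271.1 and 305.0 in control replicates 1 to 4 and 348.5, 320.1, 259.4 and 254.5 in Sel1l CKO replicates 1 to 4. Sel1l CKO replicates 1 and 2 lay above and replicates 3 and 4 below all control libraries. After subtracting each genotype's mean, Tpi1, Pgk1, Pkm and Ldha, picked after their values were seen, had pairwise Pearson correlations of 0.908 to 0.992 over 8 libraries, and with Pfkl and Aldoa added the lowest of 15 was 0.588. These are descriptions across libraries that share their depth and cell preparation. Hk1, Gpi1 and Slc2a1 did not follow this pattern closely, with correlations to Tpi1 of 0.486, 0.123 and 0.333.

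**Figure D3:**
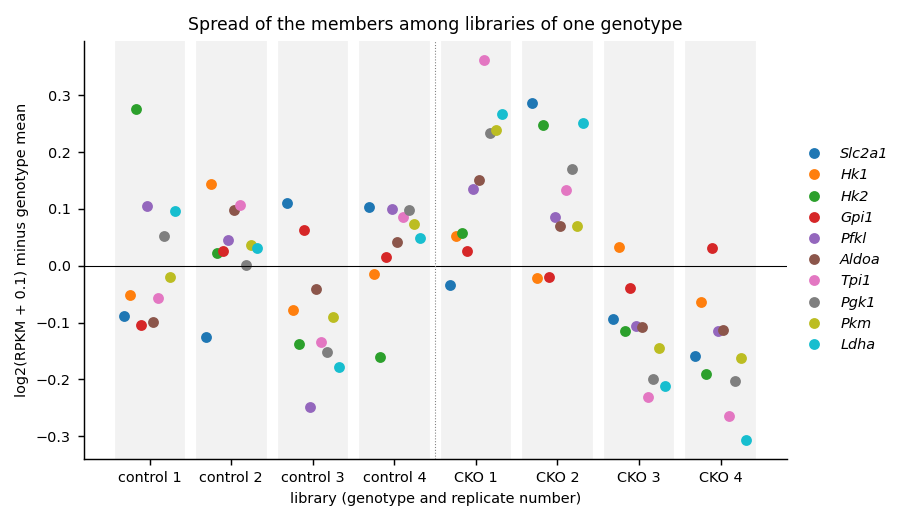
Log2(RPKM + 0.1) minus the mean of the genotype (vertical axis) for each member (colour) in each library (horizontal axis, 4 control and 4 Sel1l CKO). Tpi1, Pgk1, Pkm and Ldha lie above 0 in Sel1l CKO replicates 1 and 2 and below 0 in replicates 3 and 4, and Pfkl and Ldha are lowest among control libraries in replicate 3.

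In replicates 1 and 2 alone the log2 difference between genotypes was 0.31 for Ldha, 0.25 for Tpi1, 0.36 for Pgk1 and 0.10 for Pkm. In replicates 3 and 4 it was -0.07, -0.20, 0.02 and -0.19 in the same order. The labels name no batch, so this split rests on replicate numbers only. These 4 genes were picked for this pattern, so the values are a description. A limma term for the change in genotype difference between the replicate pairs passed for none of them. Its adjusted p was 0.174 for Ldha, 0.194 for Tpi1, 0.211 for Pgk1 and 0.244 for Pkm. Because of the choice, this test does not measure the strength of the pattern. Hk2 was alike in both pairs (0.28 and 0.27), and Slc2a1 differed in sign (0.19 and -0.28). The summed level of 18 proliferation genes moved in the same libraries, at 567, 539, 464 and 580 RPKM in control and 681, 698, 501 and 487 in Sel1l CKO replicates 1 to 4, with 0 of 18 called in either direction and a median log2 difference of 0.17. Sel1l itself was lower in Sel1l CKO replicates 1 and 2 than in 3 and 4. The part of either in the glycolytic values was not tested.

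The genes whose deviations from the genotype mean were most like the members' mean deviation, of 6504 others, were Hdgf (r = 0.996), a growth factor found in the nucleus, Rpa1 (0.995), a single-stranded DNA binding subunit of replication, Mcm5 (0.992), a subunit of the replicative helicase, Ndufb7 (0.992), a subunit of respiratory complex I, and Wdr61 (0.991), of the PAF1 and SKI complexes. Each r is over 8 libraries and is a description. The members' mean deviation itself was 0.15 and 0.13 in Sel1l CKO replicates 1 and 2 and -0.12 and -0.15 in replicates 3 and 4, and in control libraries it was lowest in replicate 3 (-0.09).

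Ratios between genes inside 1 library depend little on how libraries are scaled, except for low genes through the added 0.1 RPKM, and 6 were compared by two-sided exact permutation tests over 70 assignments, whose smallest p is 0.0286. Of the 6, 3 did not overlap between genotypes and reached that p, and none passed after adjustment over the 6 (adjusted p = 0.0571 by permutation). With 3 of the 6 at the smallest p no lower adjusted p was possible, so the adjustment does not weigh the strength of these ratios. Pgk1 over Pkm was -1.18, -1.29, -1.31 and -1.23 on the log2 scale in control and -1.03, -0.92, -1.07 and -1.06 in Sel1l CKO libraries. Every Sel1l CKO library stood above every control library, by 0.23 on average, and the difference was 0.26 in replicates 1 and 2 and 0.20 in replicates 3 and 4. Aldoa over Aldoc, the brain-type aldolase, was 0.76 higher on the log2 scale in Sel1l CKO libraries. Aldoc itself was 1.26 ± 0.0698 RPKM in control and 0.629 ± 0.158 in Sel1l CKO libraries (SD, n = 4 each), with a mean over all libraries under 1 RPKM (log2 difference -0.92, adjusted p = 0.0290 without a minimum level). Aldoa was 98.1% of aldolase level per exon length in control and 98.9% in Sel1l CKO libraries.

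Pfkp over Pfkl was 0.50 higher on the log2 scale in Sel1l CKO libraries, by 0.78 in replicates 1 and 2 and 0.22 in replicates 3 and 4. Pfkp, the platelet-type phosphofructokinase, read 0.835, 0.689, 0.636 and 0.867 RPKM in control and 1.15, 1.68, 0.856 and 0.830 in Sel1l CKO libraries. Its groups overlapped and it did not pass the test (adjusted p = 0.360 without a minimum level). Ldha over Ldhb was 0.54 higher on average with overlapping groups (exact permutation p = 0.114, adjusted p = 0.171). Hk2 over Hk1 differed by 0.18 (exact permutation p = 0.257, adjusted p = 0.309) and Slc2a1 over Slc2a3 by -0.02 (exact permutation p = 0.8286, adjusted p = 0.8286).

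**Figure D4:**
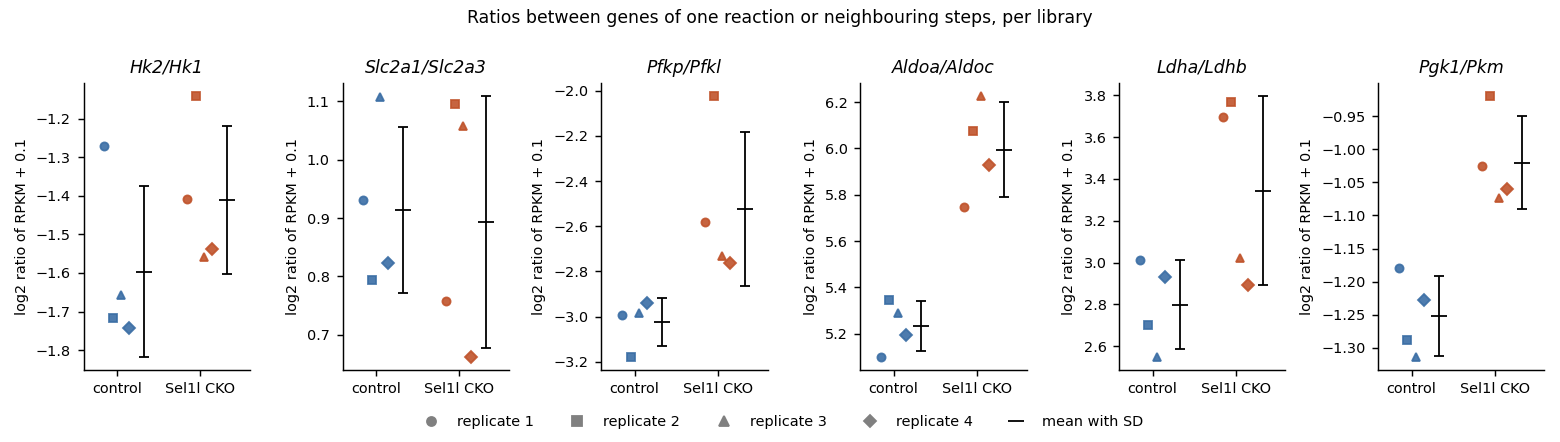
Log2 ratio of RPKM + 0.1 between a pair of genes (vertical axes, scaled per panel and not from 0) in each control (blue) and Sel1l CKO (orange) library, with the marker shape giving the replicate number and the bar the mean with SD. Pfkp/Pfkl, Aldoa/Aldoc and Pgk1/Pkm do not overlap between genotypes, with mean differences of 0.50, 0.76 and 0.23.

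Of 32 other transporters and glycolytic genes 9 had a mean of at least 1 RPKM, and of these 0 were called in either direction, with a median log2 difference of -0.03. Aldoc, below that level, was lower in the fit without a minimum, as given above, and in voom (adjusted p = 0.0171). Gapdh, the glyceraldehyde phosphate dehydrogenase, stood at 469 ± 20.5 RPKM in control and 494 ± 73.5 in Sel1l CKO libraries (SD, n = 4 each, log2 difference 0.06, adjusted p = 0.755). Eno1, an enolase, and Pgam1, a phosphoglycerate mutase, had log2 differences of -0.03 and -0.10 (adjusted p = 0.919 and 0.600). Gapdh and Eno1 too were highest in Sel1l CKO replicates 1 and 2, as Tpi1 and Ldha were.

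Beyond pyruvate, 2 of the 17 tested genes of lactate and pyruvate fate were called, 1 in each direction. Among all tested genes 4.27% were called higher and 1.01% lower. Ldhb, the lactate dehydrogenase subunit that favours pyruvate formation, read 7.13, 8.48, 8.14 and 7.29 RPKM in control and 5.41, 5.09, 6.21 and 6.37 in Sel1l CKO libraries. All Sel1l CKO libraries lay below all control libraries (log2 difference -0.42, SE 0.0938, adjusted p = 0.0328). It did not pass without Sel1l CKO replicate 1 or 2 or control replicate 2, 3 or 4, with adjusted p of 0.0613 to 0.0970, nor without a minimum level (adjusted p = 0.0791) or with equal RPKM sums (adjusted p = 0.0565). Beside it Ldha made up 72.7% ± 2.96 of lactate dehydrogenase level per exon length in control and 79.3% ± 5.12 in Sel1l CKO libraries (SD, n = 4 each), with overlapping ratios as given above. Mdh1, the cytosolic malate dehydrogenase of the shuttle that carries reducing equivalents of NADH into mitochondria, rose from 18.2 ± 0.946 to 23.6 ± 1.63 RPKM (SD, n = 4 each, log2 difference 0.37, adjusted p = 0.0150). Mdh1 did not pass without control replicate 1 (adjusted p = 0.0563). Mdh2, its mitochondrial counterpart, had a log2 difference of 0.03 (adjusted p = 0.856). Bsg, the chaperone of the lactate transporters, was 28.0 ± 1.24 RPKM in control and 23.8 ± 2.21 in Sel1l CKO libraries and did not pass (log2 difference -0.24, adjusted p = 0.119), but did without Sel1l CKO replicate 1 (log2 difference -0.30, adjusted p = 0.0314).

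Of the 10 pentose phosphate genes, which branch from glucose 6-phosphate, all were tested and 0 were called in either direction (median log2 difference 0.02). Pgls, the lactonase of the oxidative branch, lay between 21.1 and 22.3 RPKM in control and 23.4 and 25.4 in Sel1l CKO libraries, without overlap, and did not pass (log2 difference 0.15, adjusted p = 0.168). Tkt and Taldo1, the transketolase and transaldolase that return sugars to glycolysis, had log2 differences of -0.14 and 0.03 (adjusted p = 0.433 and 0.812).

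In the branch from fructose 6-phosphate to amino sugars and nucleotide sugars, 5 of 11 tested genes were called higher and 0 lower. Among all tested genes the shares were 4.27% and 1.01%. Uap1, Pgm3 and Uap1l1 were under 1 RPKM in control and entered the 11 only through the Sel1l CKO libraries, so the count depends in part on the minimum level. Without a minimum level the adjusted p was 2.4e-04 for Uap1 and 0.0272 for Pgm3. The difference between this branch and the glycolytic members was not tested. Gfpt1, the first enzyme of the hexosamine pathway, draws on the same fructose 6-phosphate as Pfkl, and read 1.16, 1.17, 1.21 and 1.09 RPKM in control and 1.61, 1.80, 2.43 and 2.38 in Sel1l CKO libraries. The groups did not overlap, and among the Sel1l CKO libraries the values were highest in replicates 3 and 4, where Ldha and Tpi1 were lowest (log2 difference 0.76, SE 0.130, adjusted p = 0.0096). Pgm3, a mutase of the same pathway, rose by 0.70 on the log2 scale (adjusted p = 0.0065). Uap1, which makes UDP-GlcNAc, rose from 0.881 ± 0.0240 to 1.90 ± 0.121 RPKM (SD, n = 4 each, log2 difference 1.02, adjusted p = 4.9e-05). Gmppa and Gmppb, subunits of the enzyme that makes GDP-mannose, rose by 0.997 and 0.986 on the log2 scale (adjusted p = 0.0037 and 0.0022). Pmm1, a phosphomannomutase, had a log2 difference of -0.08 (adjusted p = 0.540).

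**Figure D5:**
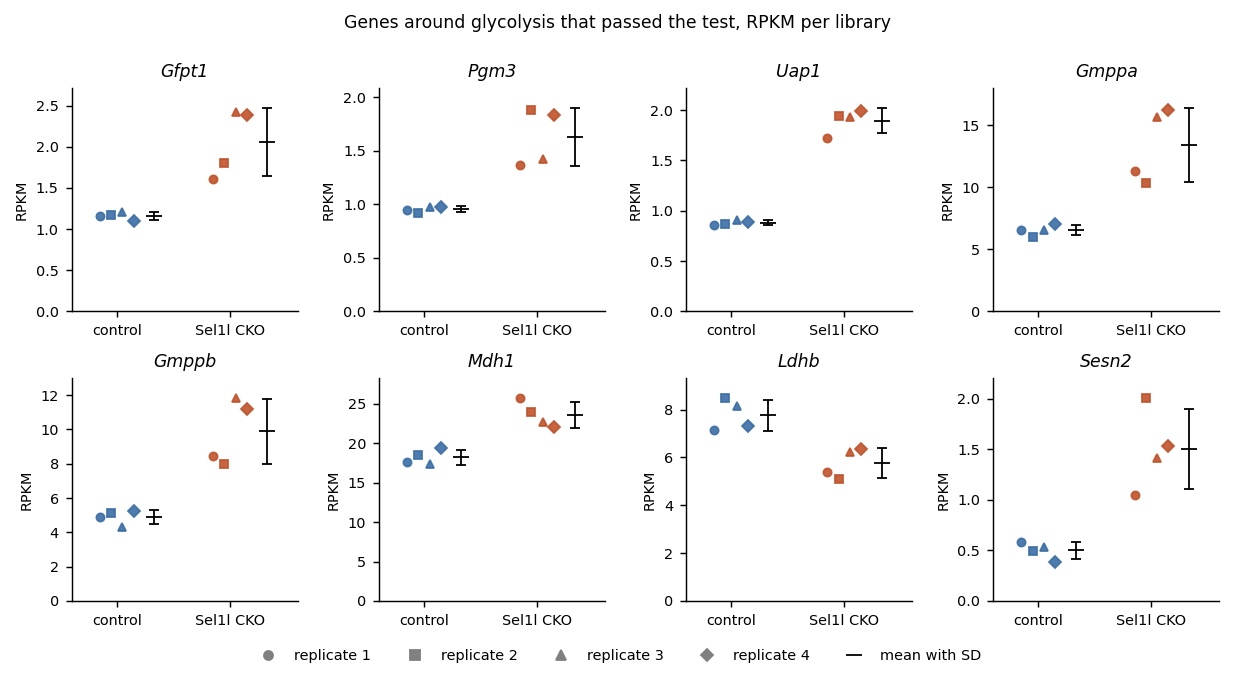
RPKM (vertical axes, each from 0) in control (blue) and Sel1l CKO (orange) libraries of the 8 genes of the related lists that passed the test, with the marker shape giving the replicate number and the bar the mean with SD. The groups do not overlap for any of the 8, Ldhb is lower in Sel1l CKO (5.09 to 6.37 against 7.13 to 8.48) and the other 7 are higher. The 8 were picked by a test on these same libraries, so their separation follows in part from the choice. Of all tested genes 9.15% were higher and 5.59% lower without overlap.

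Among regulators of glycolysis, 1 of 29 tested genes was called higher and 0 lower, near the 4.27% and 1.01% of all tested genes. The median log2 difference of the 29 was -0.05. The called gene was Sesn2, a stress-induced inhibitor of mTORC1, which rose from 0.5003 ± 0.0836 to 1.501 ± 0.395 RPKM (SD, n = 4 each, log2 difference 1.39, adjusted p = 0.0018). It reached the minimum level only through the Sel1l CKO libraries and was not tested with median-of-ratios scaling or without any 1 of those libraries. Without a minimum level its adjusted p was 0.0162. Myc, the transcription factor that drives many glycolytic genes, was 58.4 ± 4.39 RPKM in control and 62.7 ± 10.5 in Sel1l CKO libraries (SD, n = 4 each, log2 difference 0.09, adjusted p = 0.668). Hif1a had a log2 difference of -0.04 (adjusted p = 0.864). Txnip, which lowers glucose uptake by GLUT1, and Ddit4, an inhibitor of mTORC1, had log2 differences of -0.25 and -0.18 (adjusted p = 0.343 and 0.563). Of 7 tested HIF1 targets outside glycolysis 0 were called in either direction. Vegfa, a growth factor for vessels, read 3.69, 3.56, 4.34 and 3.29 RPKM in control and 3.98, 6.73, 6.998 and 7.28 in Sel1l CKO libraries, with Sel1l CKO replicate 1 among the control values (log2 difference 0.70, adjusted p = 0.0637). Without that library it passed (log2 difference 0.90, adjusted p = 0.0012). Mif, a cytokine, and Higd1a, a mitochondrial protein, had log2 differences of 0.12 and 0.13 (adjusted p = 0.446 and 0.365).

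Of 14 genes that change at β-selection 7 were tested, and Slc7a5 and Slc3a2, the subunits of a large amino acid transporter, were called higher and 0 lower. Among all tested genes the shares were 4.27% and 1.01%. The list as a whole was not raised: 5 of the 7 had a log2 difference below 0, and the median was -0.25. Slc7a5 rose by 1.08 and Slc3a2 by 0.90 on the log2 scale (adjusted p = 0.0082 and 0.0188), beside the -0.04 of the glucose transporter Slc2a1, whose difference from them was not tested.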

How the data were processed

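Sorted DN3 thymocytes of 4 control and 4 Sel1l CKO libraries were sequenced from a stranded mRNA kit, and per the study's methods reads were aligned to GRCm38 with STAR (2.5.2b) and counted on protein-coding genes with HTSeq. The deposited values are RPKM, and the authors appear to have divided by the full gene span with introns: 75.8% of protein-coding genes gave whole reads (within 0.02) on the span and 3.0% on exon length. Genes with long introns therefore have low RPKM. With lengths fitted for a further 3281 genes, Gpi1 included, 95.0% of the 15856 genes with a value gave whole reads. The annotation used here to recover them was GENCODE M21. Genes with a mean of at least 1 RPKM were tested with limma 3.58.1 in R 4.3.3 (moderated test with trend on log2(RPKM + 0.1), two-sided, Benjamini-Hochberg, threshold 0.05). Reads were tested with voom, and levels between genes used exon lengths. On simulated data with 200 known changes of 1 on the log2 scale, larger than any difference among the members, limma recovered 187 of them with 13 false calls and voom 194 with 11. The simulated noise was drawn separately for each gene, while genes in the libraries varied together, so these rates may not carry over. Single values used exact permutation tests over 70 assignments. The text names every member, Sel1l, the called genes and the 3 most abundant tested genes of each related list and the 5 genes most like the members. Aldoc, Pfkp, Slc2a3, Slc2a6, Slc2a8, Slc2a9 and Hk3 were partners in ratios or shares. Hif1a, Hspa1a, Hspa1b, Hsph1, Hsp90aa1, Btg2, Slc7a5, Slc3a2, Epcam, Alas2 and Kit were added after their values were seen. The members and lists were chosen with earlier results of these data known. Of 146 listed genes of the related lists 142 had a value, and the others were not analysed here. Samples were grouped by the genotype in their labels. Alternatives were other pseudocounts, minimum levels, scalings, weights, lengths, a replicate block, replicate pairs as a term and leaving out each library.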

Additional observations from a re-analysis of the deposited data

Results flagged for a closer look

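In 2 of 68 groups of 4 values (34 named genes in 2 genotypes) 1 library stood far from the other 3 by Dixon's test, where about 3.4 such groups arise by chance. No glycolytic member was among them. Bsg was 27.1 RPKM in Sel1l CKO replicate 1 against 22.5 to 23.1 in the other 3 Sel1l CKO libraries. Vegfa was 3.98 RPKM in Sel1l CKO replicate 1 against 6.73 to 7.28 in the other 3.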

How the results depend on the processing

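Across 13 alternatives and 8 fits leaving out 1 library, 0 members were called higher and 0 lower, except 1 lower with array weights (Aldoa). All-gene counts were 182 higher and 36 lower with a minimum of 5 RPKM, 458 and 182 with array weights, 102 lower with quantile normalization, 182 lower with replicates 1 and 2 against 3 and 4 as a term, 157 with voom, 121 with exon-length RPKM, and 31 to 75 lower leaving out 1 library (31 without control replicate 3, 75 without Sel1l CKO replicate 4), against 278 and 66 in the reported fit. Genes of related lists called higher were 3 with the minimum of 5, and called lower 0 with equal RPKM sums, 2 with quantile normalization, 4 with array weights, 2 with the replicate term, 3 with voom, 3 with exon lengths and 0 to 2 leaving out 1 library (0 without Sel1l CKO replicate 2 or control replicate 2, 3 or 4). Of 684 gene differences 633 kept direction and side of the threshold, 24 reversed, 8 passed newly and 19 no longer passed. Array weights reversed Tpi1 (-0.17), Ldha (-0.0891), Gapdh (-0.0896), Mdh2 (-0.0871) and Myc (-0.0058), and quantile normalization Tpi1 (-0.0418), Mdh2 (-0.0402) and Taldo1 (-0.0245). Leaving out 1 library gave ranges through 0 for Slc2a1 (-0.14 to 0.0093), Pfkl (-0.10 to 0.0186), Tpi1 (-0.0937 to 0.12), Pkm (-0.12 to 0.0132), Gapdh (-0.0104 to 0.13), Eno1 (-0.11 to 0.0533), Mdh2 (-0.0228 to 0.10), Myc (-0.0181 to 0.15) and Slc2a1 over Slc2a3 (-0.088 to 0.0562). Ldhb and Mdh1 had adjusted p of 0.0614 and 0.0520 with the replicate block, and Sel1l 0.0601. Without a minimum level they were 0.0791 for Ldhb and 0.0904 for Sel1l, and with equal RPKM sums 0.0565 and 0.0649. Sesn2 gave no value with median-of-ratios scaling or without any 1 Sel1l CKO library, being under the minimum level. That block called 236 genes higher and 81 lower and 0 members. Same-numbered libraries correlated at 0.162, 0.097, 0.445 and 0.005, not every library correlated best with its own number, and the numbers were not taken as pairs. The block changed no other call among named genes. The causes were not tested.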
